A study of Danio rerio with 12 samples.

Results

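CCCGGG sites that stood close together on the chromosome and were methylated in zebrafish embryos (Danio rerio) were described here. A dense site was a listed CCCGGG with at least 3 other listed CCCGGG sites within 1000 bp on the same chromosome. A dense site was a member of the set if it had at least 240 reads summed over the 12 libraries and a pooled methylation level, the summed methylated reads as a share of all summed reads, of 10% or more. Chromosome 4 from position 27000000 onwards was left out. Of 64466 listed sites, 3797 were dense, 2764 of them outside that stretch, and 168 of these had 240 reads. Members numbered 147 of the 168, and the other 21 dense sites lay under 10%.

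Methylation was read by DREAM, digital analysis of methylation with restriction enzymes, in which SmaI first cuts unmethylated CCCGGG and XmaI then cuts the methylated sites that remain, so that the sequence at a fragment end gives the state of the site. The embryos came from a wild-type stock, obtained commercially and bred in the laboratory, and were collected 72 hours after fertilisation, and each library came from 1 pool of 20 embryos. Control pools had no arsenite, the other pools spent 72 hours in 0.1 mM or in 1 mM sodium arsenite, a soluble salt of inorganic arsenic, and each group had 4 pools. The labels number the pools as separate samples, and p-values measure the spread between these pools. A level is thus an average over all cells of 20 whole embryos.

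Cytosine methylation in vertebrates lies mostly at CpG, and each CCCGGG holds a single CpG at its centre. Most CpGs of a vertebrate genome are methylated, and the stretches dense in CpG that escape it, the CpG islands, often lie at gene promoters. Dense, methylated CpGs are known from repeated DNA and from gene bodies. Whether a dense group of CCCGGG sites is an island in this sense was not tested, because a CCCGGG count is not a CpG count. Positions are those of the deposited files, on build danRer7 per the submitters' processing notes, and no gene annotation of that build was used here.

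Libraries held 1425613 to 1822127 reads at listed sites, and the members took 2.74 to 2.98% of them. The median member had 118 to 194 reads in a library. Summed over the libraries, a member had 240 to 26732 reads, with a median of 1790. The dense sites under 10% were deeper, with a median of 19990 reads, and methylated sites outside dense groups had a median of 2544. The sources used here name no molecular identifiers, so the binomial intervals, and the limits given for counts of 0, cover counting error only.

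Dense CCCGGG sites with 240 reads were mostly methylated in these embryos. Such sites were 6.08% of the 2764 dense sites outside the stretch left out, so most dense sites were not judged. Members made up 87.5% of the 168 dense sites with 240 reads (exact 95% interval 81.5 to 92.1%), and sites under 10% made up 12.5% (7.91 to 18.5%). Outside dense groups, 2207 of 2466 sites with 240 reads lay at 10% or more, which is 89.5%, and 259 lay under 10%, which is 10.5%. The share in dense groups thus differed from the share elsewhere by less than its counting interval. The members were chosen by their number of close sites, their summed reads and their pooled level, so these shares, and all levels below that are not split by exposure, are a description with no test. In single libraries, the share of dense sites with 20 reads that lay at 10% or more was 87.0 to 88.9%.

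Members lay close to full methylation. Their median pooled level was 96.6%, the quartiles were 91.9% and 98.7%, and the mean was 92.8%. Methylated sites outside dense groups had a median of 96.3%, a lower quartile of 88.8% and a mean of 89.1%. The median members and the median sites elsewhere were thus within 1 point, and the lower quartile of members was the higher of the 2 quartiles. At 6 members all reads were methylated. The deepest of these was chr8:40576991 with 2909 reads, so that up to 0.103% of copies could be unmethylated by counting alone, and the thinnest was chr12:4043802 with 243 reads, which allows up to 1.23%.

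Partial methylation was found at a minority of members. Between 90 and 100% lay 119 members, 81.0% of them, against 72.7% of methylated sites outside dense groups. Between 10 and 90% lay 28 members, 19.0% (exact 95% interval 13.0 to 26.3%), against 27.3% elsewhere (25.4 to 29.2%). Between 10 and 70% lay 8 members, 5.44% (2.38 to 10.4%), against 248 sites elsewhere, 11.2% (9.95 to 12.6%). The intervals of both pairs overlap at their edges, and each share lies outside the interval of the other. Neither fact is a test of a difference. Members in 1 cluster share their surroundings and are not independent, which these intervals do not include.

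The dense sites with 240 reads fell into separate ranges, and the threshold of 10% lay in the gap between them. The members just inside it were chr15:33210854 at 36.1% of 2754 reads, chr16:55178329 at 44.6% of 278 reads, chr8:763749 at 48.1% of 609, chr22:41198839 at 55.0% of 848 and chr15:7220898 at 59.5% of 693. The sites just outside it were chr25:5846000 at 8.70% of 253 reads, chr19:12958109 at 6.98% of 630, chr8:56092663 at 1.25% of 400, chr15:7220266 at 1.07% of 561 and chr22:30996055 at 0.685% of 292. Among 1661 values of members in single libraries with 20 reads, the lowest was 30.4% and 0 lay under 10%. Among 242 such values of dense sites under 10%, 6 lay at 10% or more. The pooled levels that chose both sets were built from these libraries, so these counts are no test.

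**Figure D1:**
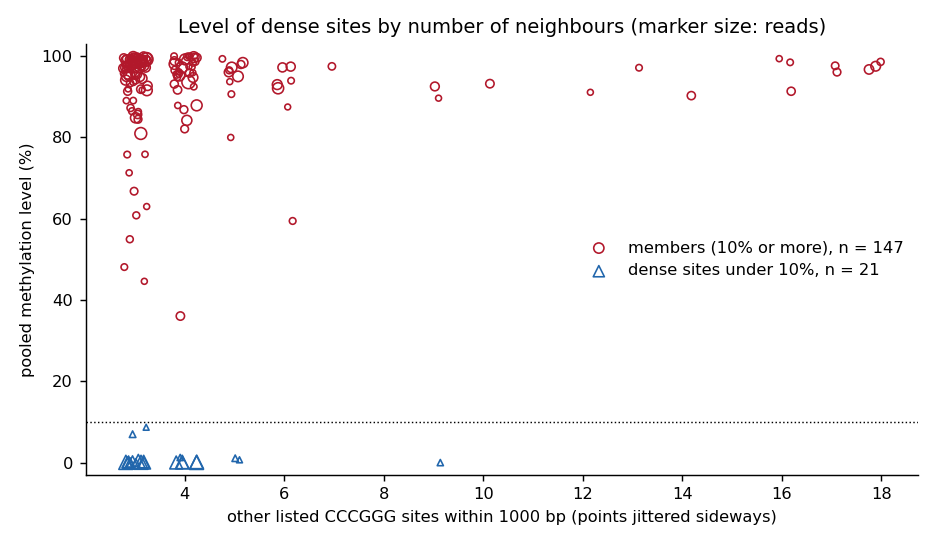
Pooled methylation level in percent (vertical axis) of the 168 dense sites with 240 reads, by the number of other listed CCCGGG sites within 1000 bp (horizontal axis); circles are the 147 members, triangles the 21 sites under 10%, and larger markers have more reads. Most members lie over 90%, and no site lies between 8.70 and 36.1%.

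Methylated sites made up most of the dense sites at each density of CCCGGG. With 3 others within 1000 bp, 79 of 91 sites were members (86.8%), at a median of 97.0%. With 4 others the count was 36 of 42 (85.7%), at a median of 96.3%. With 5 others it was 10 of 12 (83.3%), and with 6 to 10 others 11 of 12 (91.7%), at a median of 93.0%. With 12 to 18 others all 11 sites were members, at 90.3 to 99.4% and a median of 97.2%. Of these 11, 8 lay in 1 cluster of chromosome 11, so the densest class describes few places.

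Members were spread over 25 chromosomes. Chromosomes 11 and 16 held 13 each, chromosome 6 held 12, chromosomes 1 and 25 held 10 each, and chromosome 4, most of whose dense sites lay in the stretch left out, held 1. In that stretch, 52 dense sites had 240 reads and all 52 lay at 10% or more. Chained where neighbours lay within 1000 bp, the dense sites formed 95 clusters with a site of 240 reads. Of these clusters, 85 held members and no site under 10%, 2 held both, and 8 held no member. A single member was found in 53 clusters, 2 in 20, 3 in 9, 4 in 3, 7 in 1 and 8 in 1.

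Members of a cluster had like levels. In the 34 clusters with 2 or more members, which held 94 members, the median range between the lowest and the highest member was 4.40 points. The range was under 5 points in 17 clusters, 10 points or more in 10 and 20 points or more in 5. In the cluster of 4 members with the smallest range, chr25:2400340-2400982, all members lay between 98.6 and 100%. Adjacent methylated sites with 20 reads in each library differed by a median of 1.66 points in 47 dense pairs and by 3.76 points in 665 pairs outside dense groups. Over 20 points apart were 3 dense pairs (6.38%) and 90 of the other pairs (13.5%). The median distance was alike, at 208 bp in the dense pairs and 222 bp in the others. The assay sequences fragments between neighbouring cuts, so adjacent sites can be read from the same fragments and are not independent. In control pools, chr6:25984036 had 710, 767, 706 and 889 reads and its neighbour chr6:25984202 had 719, 766, 717 and 895. Members lay close to full methylation in general, with quartiles of 91.9 and 98.7%, and ranges between members of different clusters were not computed. Under 90% lay 19.0% of members and 27.3% of methylated sites outside dense groups. The part of shared fragments, or of these shares, in the small differences was not tested.

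The cluster with the most members lay at chr11:21291561-21292807. It held 19 listed sites, of which 8 were members. From the first to the last position, the members were at 90.3, 91.4, 98.6, 97.5, 96.7, 97.6, 96.1 and 98.5%. The first, chr11:21291561, had 84.2, 91.2, 93.2 and 86.1% in control pools, 92.0, 89.5, 92.5 and 88.7% at 0.1 mM, and 92.9, 89.8, 92.6 and 90.7% at 1 mM, from 137 to 256 reads. Its groups overlapped. Between chr11:21291808 and chr11:21292298, 11 sites followed each other at a constant distance of 49 bp, over 490 bp. Of these 11 sites, 6 had no read, 1 was a member, and the other 4 had at most 29 reads, all 66 of which were methylated.

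The cluster at chr6:25983513-25987021 was methylated over 3509 bp. All 7 of its listed sites were members, with 45511 reads together and levels of 95.5, 95.2, 95.1, 91.6, 84.8, 94.1 and 86.3% in order of position. The site chr6:25985347 stood below its neighbours in every library. It had 86.4, 87.4, 83.3 and 83.3% in control pools, 85.6, 82.8, 85.3 and 86.3% at 0.1 mM, and 82.4, 82.5, 87.5 and 84.9% at 1 mM, from 476 to 783 reads. The neighbour 466 bp before it, chr6:25984881, had 93.7, 90.3, 90.9 and 89.0% in control pools, 92.0, 91.7, 93.0 and 91.4% at 0.1 mM, and 92.6, 91.2, 90.6 and 92.7% at 1 mM. The lowest value of the neighbour lay above the highest value of chr6:25985347, so the step of a few points recurred in all 12 libraries.

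A methylated and an unmethylated site stood side by side in the cluster at chr15:7220173-7221341, which held 7 listed sites and 4 members. The member chr15:7220439 was methylated at 92.1% (exact 95% interval 91.6 to 92.6%) of 11788 reads, and the next listed site before it, chr15:7220266, at 1.07%, 173 bp away. In single libraries the member had 89.0 to 93.2%, from 740 reads or more. At chr15:7220266, 7 of the 12 libraries had no methylated read and the highest had 3.64%, from 26 to 71 reads. This was the only such pair with 20 reads at both sites in every library. The site on the far side, chr15:7220173, 93 bp before chr15:7220266, was again methylated, at 89.3% of 75 reads. The other members of this cluster, at 94.0, 93.0 and 59.5%, followed 92, 276 and 459 bp after chr15:7220439.

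**Figure D2:**
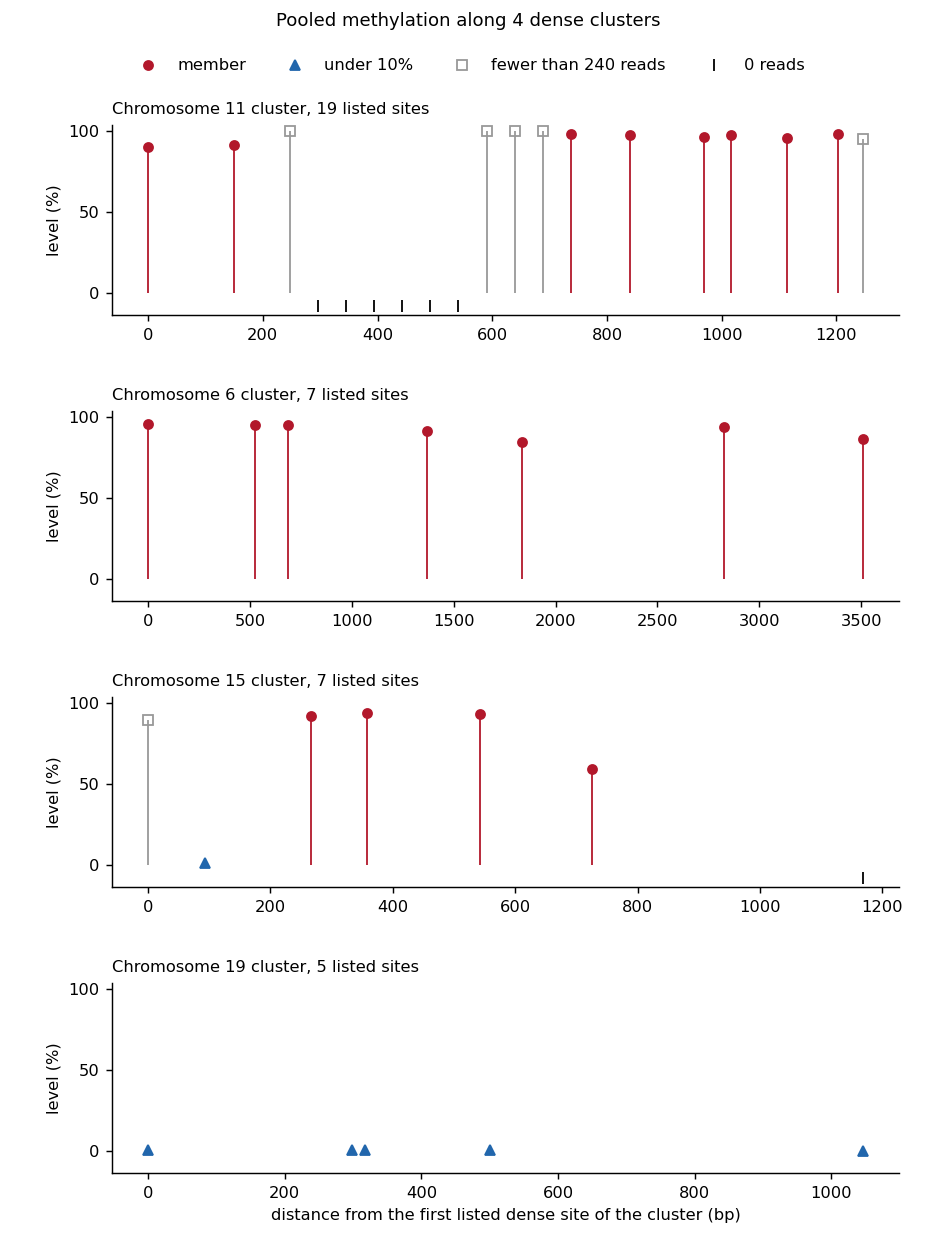
Pooled methylation level in percent (vertical axes) along 4 clusters of dense sites, by distance in bp from the first listed site (horizontal axes); filled circles are members, triangles sites under 10%, open squares sites with fewer than 240 reads, and ticks below 0 sites with no read. The chromosome 11 and 6 clusters lie between 84.8 and 100% throughout, the chromosome 15 cluster holds 1 site at 1.07% among methylated ones, and all 5 sites of the chromosome 19 cluster lie under 0.1%.

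Dense sites under 10% were sorted here into 2 groups by the levels of all sites with reads in their cluster. The values of either group thus follow from the sorting and are a description. In 5 clusters, on chromosomes 19, 18, 2, 8 and 1, every site with reads lay at 1.25% or less: 16 of the 21 sites under 10% lay there, and their 6 sites with fewer reads had 0 methylated of 544 reads, which allows a share of up to 0.551%. The cluster with most reads, chr19:30798577-30799623, held 5 such sites. The other 5 sites under 10% were each alone: chr15:7220266, chr25:5846000, chr19:12958109, chr14:25799012 with 0 methylated of 407 reads (up to 0.737% allowed), and chr22:30996055. In their clusters, 14 sites with fewer than 240 reads had 347 methylated of 374 reads, which is 92.8%. These sites had 2 to 94 reads each, and 1 of them, chr22:30995420, lay at 16.7% of 6 reads. At chr25:5846000, the member chr25:5845499 lay 501 bp before it, at 82.1%.

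In clusters with members, the sites too thinly read to be members were mostly methylated where they had reads. Of all 2596 dense sites with fewer than 240 reads, 1857 had no read, so their state is not known. In the 87 clusters with members, 164 sites had at least 1 read but fewer than 240, and 6678 of their 7444 reads were methylated (89.7%). Of 74 such sites with 24 or more reads, 73 lay at 10% or more, at a median of 96.4%. The exception was chr5:54584575, with 0 methylated of 25 reads, which allows up to 12%, named here after its value was seen. Over all dense sites with 24 or more reads but fewer than 240, 172 of 180 lay at 10% or more (95.6%). The share in clusters with members was thus near that over all thinly read dense sites.

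Ranges of 20 points or more were seen in 5 clusters, each with 1 member between 10 and 70% among members over 90%. On chromosome 15, chr15:33210423 had 97.2% of 12256 reads and chr15:33210854, 431 bp on, had 36.1% (exact 95% interval 34.3 to 37.9%); the site between them had 98.0% of 49 reads. On chromosome 6, chr6:1501435 had 99.6% and chr6:1502259 had 63.0% of 273 reads (57.0 to 68.7%), from 12 to 37 reads a library. On chromosome 21, chr21:41708626 had 66.8% and chr21:41708640, 14 bp on, had 100% of 408 reads. The others were the chromosome 15 cluster with chr15:7220898 and a chromosome 16 cluster, chr16:55177558-55178329, whose members had 99.5, 99.8 and 44.6%.

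Distances between dense sites often recurred. A constant distance between cut sites is known from tandemly repeated DNA, and whether these sites lie in repeats was not tested. Of 2287 distances between adjacent dense sites, 1376 (60.2%) were of 21 lengths that occurred at least 20 times each. The most frequent were 92 bp, found 295 times, 36 bp, found 292 times, and 157 bp, found 95 times. Next to such a distance lay 28 members (19.0%), 7 dense sites under 10% (33.3%) and 1891 of 2596 dense sites with fewer than 240 reads (72.8%). Few reads and recurrent distances went together: 35 of 1926 dense sites beside a recurrent distance had 240 reads (1.82%), against 133 of 838 other dense sites (15.9%). How reads that match several places were treated is not given in the sources used here.

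Members beside recurrent distances lay close to the rest in level. Their median was 96.1%, from 48.1 to 100%, against 97.0% for the other members. Beside a distance of 92 bp lay 6 members, at a median of 91.6%, and beside one of 36 bp 7 members, at a median of 96.1%. At least 3 equal distances in a row were found in 10 clusters with members. The repeated distance was 92 bp in 5 of them, on chromosomes 20, 2, 24, 10 and 16, and 159 bp in 2, on chromosomes 5 and 8. It was 184 bp on chromosome 1, 62 bp on chromosome 17 and 49 bp on chromosome 11. In the cluster with the longest such run, 19 distances of 92 bp on chromosome 2, the 1 member had 97.4%. The longest cluster, chr20:25792127-25858226, held 152 listed sites over 66100 bp, of which 151 had no read and 1 was a member at 99.6%.

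Dense sites with many reads mostly had a neighbour at a distance that gives a short fragment. An adjacent listed site at 100 to 600 bp was found for 131 members (89.1%), 19 dense sites under 10% (90.5%) and 1825 dense sites with fewer reads (70.3%). The assay sequences fragments between neighbouring cuts, so the members are not a sample of all dense sites.

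The deepest members had nearly the same level in every library. The deepest, chr1:19219799, had 99.4, 99.0, 99.3 and 99.4% in control pools, 99.4, 98.6, 99.6 and 98.8% at 0.1 mM, and 99.4, 99.3, 99.5 and 99.2% at 1 mM, from 1907 to 2511 reads. The next, chr8:35919355, had 94.0, 93.8, 92.9 and 93.7% in control pools, 93.8, 93.5, 92.9 and 93.2% at 0.1 mM, and 94.1, 94.0, 94.0 and 93.5% at 1 mM. The groups overlapped at both sites, and every library lay within 2 points of the others. Of the other 4 members with most reads, chr12:5341235 had 97.1 to 98.4% over the 12 libraries, chr9:52145263 had 98.5 to 99.3% and chr1:1093164 had 99.2 to 99.9%.

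The remaining one of these, chr16:28226140, was partly methylated, at 81.0% of 15882 reads. It had 80.2, 80.2, 78.9 and 78.2% in control pools, 81.8, 79.8, 84.9 and 81.3% at 0.1 mM, and 82.0, 79.9, 81.5 and 82.1% at 1 mM, from 1176 to 1567 reads. Library 2 of either exposed group lay among the control pools and the other 6 exposed pools lay above them. The mean was 2.57 points above control at 0.1 mM and 2.00 points above it at 1 mM, and neither difference passed edgeR's quasi-likelihood test (adjusted p = 0.961 at 0.1 mM and 0.942 at 1 mM).

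**Figure D3:**
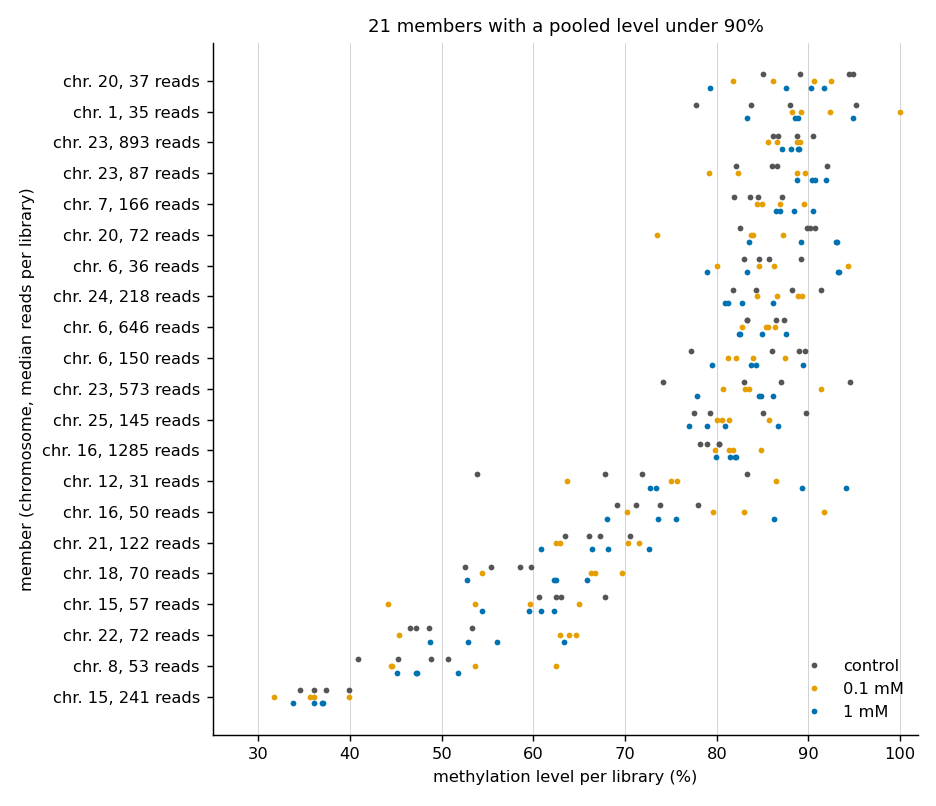
Methylation level in percent of each library (horizontal axis) at the 21 members with a pooled level under 90% and at least 20 reads in every library (vertical axis, labelled by chromosome and median reads per library); each point is 1 of the 4 libraries of a group. The lowest member, on chromosome 15, stays between 31.6 and 39.9% in all libraries, and the widest spread is that of the chromosome 12 site, with 53.8 to 94.1% from 24 to 41 reads.

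Among members with 20 reads in each library, the 2 lowest were partly methylated in every pool. The lowest, chr15:33210854, had 39.9, 34.6, 37.4 and 36.1% in control pools, 35.6, 31.6, 36.0 and 39.9% at 0.1 mM, and 33.8, 36.9, 37.1 and 36.0% at 1 mM. The next, chr8:763749, had 45.2, 40.8, 48.8 and 50.7% in control pools, 44.6, 53.6, 44.4 and 62.5% at 0.1 mM, and 51.7, 47.1, 45.1 and 47.3% at 1 mM, from 24 to 70 reads. The groups overlapped at both. Which cells, or which copies within a cell, carried the methylation cannot be told from pools.

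Among the 116 members with 20 reads in each library, those of widest spread were partly methylated, apart from 1. The largest SD over the 12 libraries in these 116, 11.3 points, was that of chr12:41920938, which had 83.3, 53.8, 67.9 and 71.8% in control pools, 86.5, 75.0, 75.6 and 63.6% at 0.1 mM, and 89.3, 94.1, 73.3 and 72.7% at 1 mM, from 24 to 41 reads. The second, 7.88 points, was that of chr18:38866988, where 1 control pool stood apart. It had 68.0, 93.8, 94.1 and 93.5% in control pools, 97.1, 91.0, 96.5 and 93.6% at 0.1 mM, and 94.5, 92.3, 97.1 and 88.1% at 1 mM, and control pool 1 had 128 reads there. The next were chr22:41198839 with an SD of 7.47 points, chr16:4694037 with 7.32 and chr15:7220898 with 6.23. At all 5 of these members, control pools overlapped with both exposed groups. With fewer reads the range could be wider: chr6:1502259 had 30.4 to 93.8% over the 12 libraries, from 12 to 37 reads.

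Most of the spread between pools was near that of counting. For the 21 members at 10 to 90% with 20 reads in each library, the median replicate SD was 4.86 points and the median binomial SD 4.08. For the 95 members over 90% the 2 values were 1.05 and 0.887 points. Outside dense groups they were 3.05 and 2.42 points in 506 sites at 10 to 90%, and 0.886 and 0.771 in 1341 sites over 90%. The highest ratio of the 2 SDs was at chr23:28606196, named here after its values were seen, whose replicate SD of 6.0 points was 3.99 times its binomial SD of 1.51. It had 74.1, 94.5, 87.0 and 82.9% in control pools, 91.3, 83.6, 83.1 and 80.7% at 0.1 mM, and 84.6, 86.2, 84.8 and 77.8% at 1 mM, from 422 to 741 reads. Its neighbour 374 bp on, chr23:28606570, stayed between 85.6 and 90.5% in the same libraries.

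Read depth at a few members differed widely between pools. On chromosome 16, chr16:55177724 had 64, 17, 57 and 0 reads in control pools, 24, 205, 82 and 0 at 0.1 mM, and 54, 57, 0 and 66 at 1 mM. Its neighbour 323 bp on, chr16:55178047, had 189, 38, 137 and 0 reads in control pools, 73, 536, 213 and 1 at 0.1 mM, and 136, 144, 0 and 161 at 1 mM. Both sites were thus empty, or had 1 read, in the same 3 pools, 1 of each group, and both were high in the same pool. Their pooled levels were 99.5 and 99.8%. The third member of that cluster, chr16:55178329, 282 bp further on and methylated at 44.6%, had 8 to 33 reads and was read in all 12 libraries. Its lowest counts, 8 in pool 3 at 1 mM and 9 in control pool 4, fell in pools where the other members had no read.

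**Figure D4:**
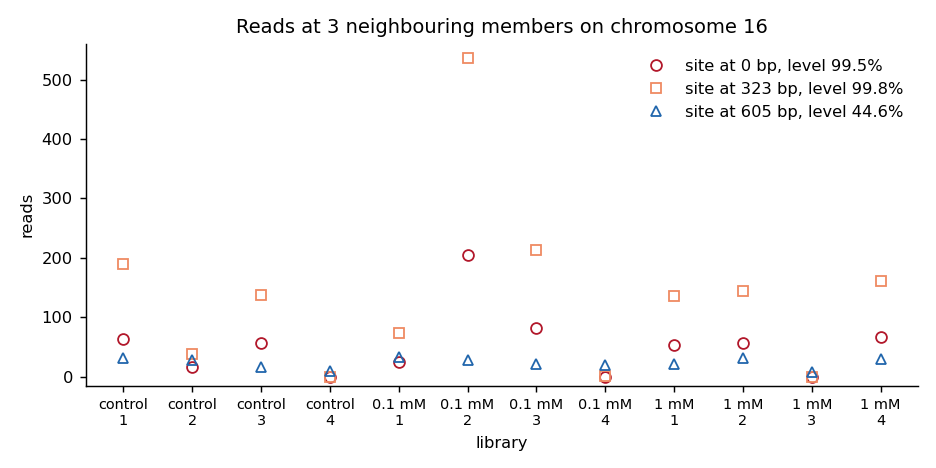
Reads (vertical axis) at 3 neighbouring members of chromosome 16 in each of the 12 libraries (horizontal axis); circles and squares are the sites at 0 and 323 bp, triangles the site at 605 bp. The first 2 have 0 or 1 read in control 4, 0.1 mM 4 and 1 mM 3 and up to 536 reads in 0.1 mM 2. The third has 8 to 33 reads, with the fewest in 1 mM 3 and control 4.

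Such gaps were rare. No read was found in at least 1 library at 3 members (2.04%), against 13 methylated sites outside dense groups (0.589%). The third such member was chr4:2024876, with 60, 43, 26 and 2 reads in control pools, 0, 108, 28 and 24 at 0.1 mM, and 78, 71, 80 and 70 at 1 mM, and a level of 98.8%. Over all members the median coefficient of variation of depth, scaled to library size, was 18.1%, against 17.2% outside dense groups. A pair on chromosome 7, chr7:44844738 at 98.9% and chr7:44844984 at 86.8%, also moved together in depth: they had 41 to 290 and 53 to 296 reads, with the lowest count of both in 0.1 mM pool 2 and the highest of both in 0.1 mM pool 3. They lie 246 bp apart and had like counts, with 159 and 171 reads in control pool 1. Whether both are ends of the same fragments was not tested. These members were named after their depths were seen.

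No member passed the test for a change with arsenite. Of the 147 members, 116 had 20 reads in each library, and 113 of these could be tested, as 3 had no unmethylated read at all. By edgeR's quasi-likelihood test with Benjamini-Hochberg adjustment over all 2228 tested sites, 0 members passed 0.05 in each of the 3 comparisons. The share of all tested sites called was likewise 0% in each, and limma on log2 odds called 0 members. The other 31 members had fewer than 20 reads in at least 1 library. With a minimum of 10 reads in each library 134 members were tested, with no minimum per library 141, and 0 passed in each comparison. Over all sites tested at these 2 settings, 2 of 2664 and 2 of 2633 passed at 0.1 mM against control, and 0 at 1 mM against control.

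At 1 mM against control, 6 of 113 members (5.31%) had an unadjusted p under 0.05, against 4.67% of all tested sites. The smallest adjusted p of a member was 0.648 in edgeR, at chr6:1501435, where limma on log2 odds gave 0.0672. This site had 100% in each of the 4 pools at 1 mM, against 98.9, 99.4, 99.0 and 99.1% in control pools, from 174 to 324 reads, a difference of 0.902 points. With 0 unmethylated of 1068 reads at 1 mM, an unmethylated share of up to 0.281% is allowed there. The groups did not overlap at 2 members (1.77%), against 1.97% of all tested sites, so the share was near the background. The other was chr17:52870774, named here for that reason, with 100, 98.1, 100 and 98.5% at 1 mM, against 97.3, 97.3, 95.5 and 97.8% in control pools, from 22 to 66 reads.

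The other 5 members with the smallest p at 1 mM all had an adjusted p of 0.942 (edgeR) and thus did not pass. The mean of chr10:3594408 was 99.6 ± 0.833% at 1 mM and 95.3 ± 2.68% in control pools (SD, n = 4 each, here and below). It was the only one of the 5 that was higher at 1 mM. At chr25:7573690 the mean was 99.3 ± 0.344% at 1 mM and 99.8 ± 0.229% in control pools, and at chr12:37703910 it was 96.7 ± 0.182% at 1 mM and 97.7 ± 0.628% in control pools. At chr13:4707126 it was 99.8 ± 0.283% at 1 mM and 100% in control pools, and at chr14:5284429 it was 97.7 ± 1.95% at 1 mM and 100% in control pools. In control pools, chr13:4707126 had no unmethylated read among 2820, which allows up to 0.106%, and chr14:5284429 none among 141, which allows up to 2.13%. Most of these differences were under 3 points, at sites close to full methylation. Single pools at 1 mM weighed on the size of 3 of them, most in proportion at chr13:4707126. The difference there was -0.186 points and -0.0481 without pool 3. At chr14:5284429 it was -2.33 and -1.52 without pool 1, and at chr25:7573690 -0.496 and -0.326 without pool 2.

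At 0.1 mM against control, 4 members (3.54%) had an unadjusted p under 0.05, against 5.16% of all tested sites. The groups did not overlap at 0 members, against 2.24% of all tested sites. The largest difference was at chr22:41198839, with 63.9, 45.3, 64.6 and 62.9% at 0.1 mM, against 48.6, 46.6, 53.3 and 47.2% in control pools, from 53 to 83 reads. It was 10.2 points, and edgeR's adjusted p was 0.939. Pool 2 at 0.1 mM was the lowest of all 8 and the other 3 exposed pools the highest. At 1 mM this site had 56.1, 63.3, 52.9 and 48.7%.

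The second largest among the members named for that comparison was at chr18:38866988, with a mean 7.18 points above control at 0.1 mM (adjusted p = 0.941, edgeR). That difference was 0.714 points without control pool 1. The other 4 named members differed by under 3 points: chr1:26649843 by 0.808, chr15:7220439 by 1.68, chr13:4707126 by -0.248 and chr14:5284429 by -2.23. Their adjusted p-values in edgeR were between 0.939 and 0.960. Single pools moved 3 of these differences by over 1.5 times. The difference at chr1:26649843 was 0.326 points without control pool 2 and 1.26 without control pool 3, that at chr15:7220439 was 0.950 without control pool 4, and that at chr13:4707126 was -0.0485 without pool 1 at 0.1 mM. Members not named by p also differed: 8 members (7.08%) were at least 5 points apart, against 3.28% of all tested sites. Among them, chr16:4694037 had 70.2, 82.9, 91.7 and 79.5% at 0.1 mM, against 71.2, 73.8, 77.9 and 69.1% in control pools. In the other direction, chr15:7220898 had 53.6, 59.6, 65.0 and 44.2% at 0.1 mM, against 62.5, 67.8, 60.7 and 63.0%.

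At 1 mM against 0.1 mM, 3 members (2.65%) had an unadjusted p under 0.05, against 4.71% of all tested sites. The groups did not overlap at 2 members (1.77%), against 2.47%. The first was chr1:26902835, with 92.0, 91.0, 88.4 and 93.2% at 1 mM, against 94.2, 93.2, 95.2 and 94.3% at 0.1 mM, from 251 to 318 reads. Control pools had 94.3, 91.6, 92.8 and 89.8% there and overlapped both exposed groups. The second was chr8:40557364, with 94.4, 88.1, 93.8 and 94.6% at 1 mM, against 100, 96.9, 94.9 and 100% at 0.1 mM, from 32 to 59 reads. The other 4 members with the smallest p differed by 0.307 points (chr6:1501435), 0.648 (chr25:7573842), 0.915 (chr23:4936121) and -4.53 points (chr24:20398909), and edgeR's adjusted p was 0.948 for all 6. Without pool 2 at 0.1 mM the difference at chr6:1501435 was 0.115 points, without pool 1 at 0.1 mM that at chr25:7573842 was 0.410, and without pool 4 at 0.1 mM that at chr23:4936121 was 0.525.

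The 3 comparisons share samples, so their values are set side by side only. The mean level was higher at 1 mM than in control pools at 66 of 113 members (58.4%), against 53.9% of all tested sites. It was higher at 0.1 mM than in control pools at 64 members (56.6%), against 49.1%. It was higher at 1 mM than at 0.1 mM at 51 members (45.1%), against 54.1%. The median difference of members was 0.0847 points at 1 mM against control, 0.226 at 0.1 mM against control and -0.0370 at 1 mM against 0.1 mM. Over all tested sites these medians were 0.0370, -0.000175 and 0.0392 points. Group means at least 5 points apart were found at 3 members (2.65%) at 1 mM against control, at 8 (7.08%) at 0.1 mM against control and at 5 (4.42%) at 1 mM against 0.1 mM, against 3.23%, 3.28% and 3.41% of all tested sites.

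The 3 members at least 5 points apart at 1 mM against control were chr12:41920938 by 13.2 points, chr22:41198839 by 6.29 and chr18:38866988 by 5.66, all among the 5 members of largest SD. Their means were higher at 1 mM with all pools, and their adjusted p was 0.942 in edgeR. The sizes moved with 1 pool left out, and that at chr18:38866988 rested on 1 pool. Without control pool 1, the mean of chr18:38866988 was 93.0% at 1 mM and 93.8% in control pools, so the difference turned to -0.805 points. At chr12:41920938 the difference was 8.04 to 17.9 points with 1 pool left out, the lowest without control pool 2. At chr22:41198839 it was 3.6 to 8.47 points, the lowest without pool 2 at 1 mM.

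Averaged over the 116 members with 20 reads in each library, the level was 92.7 ± 0.143% in control pools, 93.1 ± 0.285% at 0.1 mM and 93.1 ± 0.341% at 1 mM. Control pools had 92.54, 92.76, 92.78 and 92.51%, pools at 0.1 mM 93.05, 92.79, 93.48 and 93.17%, and pools at 1 mM 93.58, 92.98, 92.84 and 92.89%. All 8 exposed pools lay above all 4 control pools, the closest pair at 92.79% and 92.78%. Methylated sites outside dense groups averaged 89.0 ± 0.365% in control pools, 88.9 ± 0.273% at 0.1 mM and 89.1 ± 0.227% at 1 mM, and the groups overlapped. The median over members was 96.2 to 97.1% in control pools, 96.1 to 97.1% at 0.1 mM and 96.4 to 96.9% at 1 mM, and these overlapped as well.

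Whether the groups separated depended on the measure. With adjusted levels, described below, all 8 exposed pools again lay above all 4 control pools, at 93.40 to 93.59% in control pools, 93.72 to 94.10% at 0.1 mM and 93.87 to 94.12% at 1 mM. The groups overlapped with the level weighted by reads, with a minimum of 50 reads in each library, and, in alternatives added after seeing the data, without the 5 members of largest SD. Where those 5 were chosen by their SD within groups, which uses no difference between groups, the mean was 93.4 to 93.7% in control pools, 93.6 to 94.0% at 0.1 mM and 93.5 to 94.1% at 1 mM. The mean then still exceeded control, by 0.213 points at 0.1 mM and 0.203 at 1 mM. Where they were chosen by their SD over all 12 libraries, which holds the differences between groups as well, these values were 0.284 and 0.229 points. Without pool 1 at 1 mM, the mean at 1 mM exceeded that of control pools by 0.255 points, against 0.424 with all pools. The median reads per member averaged 135 in control pools, 161 at 0.1 mM and 151 at 1 mM. Their ranges overlapped, at 118 to 159 in control pools, 135 to 194 at 0.1 mM and 135 to 181 at 1 mM. The least methylated of the spiked standards read 0.175 to 0.908% in control pools, 0.160 to 0.429% at 0.1 mM and 0.479 to 2.57% at 1 mM. The part of either in the mean level was not tested. The dense sites under 10% averaged 0.546 ± 0.178% in control pools, 0.453 ± 0.157% at 0.1 mM and 0.504 ± 0.139% at 1 mM.

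**Figure D5:**
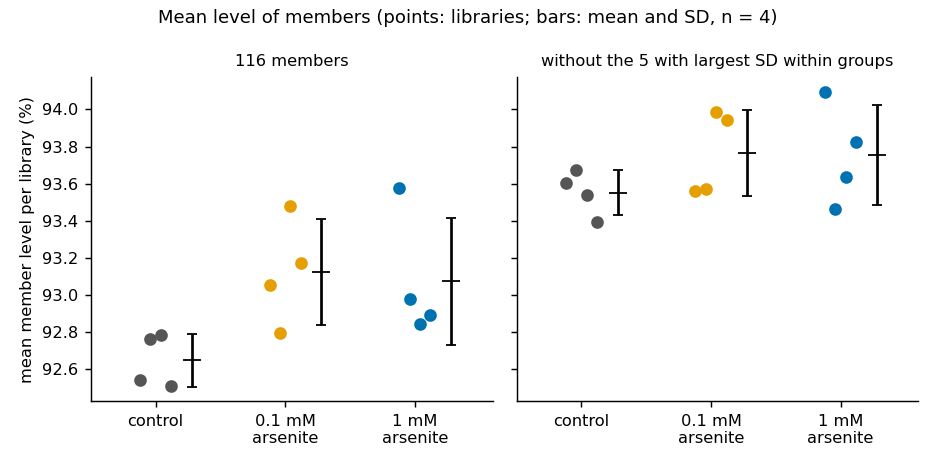
Mean methylation level in percent (vertical axes, not starting at 0) of each library by group (horizontal axes), over the 116 members with 20 reads in each library (left) and without the 5 members of largest SD within groups (right); points are libraries, bars the mean and SD of 4. On the left the 8 exposed libraries lie above the 4 control libraries, and on the right the groups overlap.

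The adjustment that the authors applied from spiked standards moved partly methylated members most. The adjusted level exceeded the share of reads by a median of 5.35 points at members between 10 and 70%, by 2.34 points between 70 and 90% and by 0.303 points between 90 and 100%. With adjusted levels, 148 of the 168 dense sites lay at 10% or more, 88.1%, as chr25:5846000 passed the threshold.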

How the data were processed

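Per the labels' protocols, 2.5 micrograms of DNA from each pool received 8 spiked methylation standards, were cut with SmaI and then XmaI, and were amplified with 12 PCR cycles. No aligner or setting is named in the sources used here. For each library the authors deposited methylated, unmethylated and total reads per site, in a unit taken to be expected counts because the same column holds a correction factor that is not whole. All site values were whole and none was rounded. Also deposited by the authors were levels in percent, namely a raw level equal to the methylated share with 0.5 added to each kind of read, and an adjusted level that multiplies methylated reads by the library's factor of 1.198 to 1.324. The levels given here are unadjusted shares of reads. A deposited table of the whole series held adjusted levels of 1533 sites, 70 of them members, with no difference from the single libraries, and 0 of its value columns were without a sample.

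The members and lists were chosen with earlier results of these data known. Sites with 20 reads in each library were tested with edgeR 4.0.16 in R 4.3.3, with a coverage term per library and a group term on methylated reads over all 12 libraries, the quasi-likelihood F test and Benjamini-Hochberg adjustment over 2228 sites at a threshold of 0.05. An alternative fit used limma 3.58.1 on log2 odds, with 1 read of each kind added. The fit was checked on simulated data with real depths and known changes of odds. That check does not show how small a change could be found at members close to full methylation. Mean levels over members and shares that the choice of members used have no test. Other alternatives changed the coverage minimum, the density, the read minimum, the level measure, the samples fitted and the replicates. Other values were computed in Python 3.11.15 with numpy 2.4.6, with pandas 2.3.3 and with scipy 1.17.1, and intervals are exact Clopper-Pearson at 95%. A count of 0 was given the limit of 3 counts.

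By rule, the text names called members or, where fewer than 6 passed, the 6 with the smallest p in each comparison; the 3 clusters with most members and the 3 with most members at 10 to 70%; 5 sites on each side of the threshold of 10%; the 6 deepest members; the 5 of largest SD among those with 20 reads in each library; and the closest pairs of a member over 50% and a site under 10%. Other sites were named after their values were seen.

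Same-numbered libraries of different groups correlated at -0.0648 to 0.0974 over 1688 sites in 12 pairs, so the numbers were not taken to pair the pools. The 18 replicate pairs within groups differed in depth by a chi-square per degree of freedom no lower than 7.42, so none was counted as a duplicate.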

Additional observations from a re-analysis of the deposited data

Results flagged for a closer look

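In groups of 4 pools, the highest or lowest pool was compared with the rest by its gap to the nearest pool as a share of the group's range (Dixon's test at the 95% level). The check was made in 81 groups, for 26 members and the mean levels, and 5 groups had a pool that stood apart. Chance gives about 1 in 20 for groups not chosen by their values. Members here were named partly for a small p or a large SD, so that rate does not hold for them. At chr18:38866988, control pool 1 stood apart at 68.0%, against 93.5 to 94.1% in the other control pools. At chr22:41198839, pool 2 at 0.1 mM stood apart at 45.3%, against 62.9 to 64.6% in the others. At chr8:40557364, pool 2 at 1 mM had 88.1%, against 93.8 to 94.6%. At chr10:3594408, pool 3 at 1 mM had 98.3%, against 100% in the others, which is 1 unmethylated read of 60. The others were tied, so the gap equals the range whatever its size, and the check says nothing there. At chr25:7573690, pool 2 at 1 mM had 98.8%, against 99.4 to 99.5% in the others.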

How the results depend on the processing

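The count of called members was 0 in each comparison under all alternatives: 16 at 1 mM against control, 15 at 0.1 mM against control and 16 at 1 mM against 0.1 mM. Over all tested sites, a block for the replicate number called 4 of 2228 at 1 mM against control and 2 of 2228 at 0.1 mM against control. The other alternatives called at most 2 sites in either of these comparisons. The replicate block also gave 0 members in each comparison, and replicate numbers did not pair the pools: 5 of 12 libraries correlated best with their own number. For the members named by p in each comparison, differences in that comparison turned direction in 0 of 198 alternatives. The lowest adjusted p was 0.0672, at chr6:1501435 (limma on log2 odds). The minimum of 10 reads, limma and the replicate block left these differences unchanged by design, so direction could turn only with 1 pool left out. The member chr18:38866988 was named at 0.1 mM against control. Its difference at 1 mM against control, not among the 198, turned to -0.805 points without control pool 1. The mean member level at 1 mM exceeded control by 0.424 points, by 0.0816 as a median over members, by 0.125 weighted by reads, and by 0.255 to 0.501 with 1 pool left out. The mean at 0.1 mM exceeded control by 0.475 points, was -0.0197 as a median, 0.220 weighted by reads, 0.870 with 1 member per cluster, 0.213 without the 5 members of largest SD within groups, and 0.357 to 0.585 with 1 pool left out. Between 1 mM and 0.1 mM the difference of -0.0511 points went from -0.220 to 0.0672 with 1 pool left out, and was 0.0455 with adjusted levels and 0.101 as a median. The share of members among dense sites, 87.5%, was 91.4% with 5 or more others, 81.4% within 500 bp, 88.9% at 120 reads, 85.0% at 1200 reads, 88.1% with adjusted levels, 90.5% with chromosome 4 whole, 91.6% with 1 site per cluster, and 87.0 to 88.1% with 1 library left out. The median level, 96.6%, was 96.1% with 5 or more others, 97.1% within 500 bp, 96.2% at 120 reads, 97.2% at 1200 reads, 97.0% with 1 site per cluster, and 96.3 to 97.0% with 1 library left out. The settings by cluster and by SD, and those leaving out libraries for the share and the median, were added after seeing the data, and the cause of these shifts was not tested. Depth limits what can be told at members with few reads: 113 of 147 were tested with 20 reads in each library, 134 with 10 and 141 with no minimum per library.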
